A study of Mus musculus with 9 samples.

Results

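The genes described here repair broken or stalled DNA by homologous recombination, unlink crosslinked strands through the Fanconi anaemia pathway, correct mismatches, or halt the cell cycle when DNA is damaged. They were chosen by name, as a list of 29 genes. The choice was made with earlier results of these data known, so shares of the list set beside those of all genes are descriptions only. Each gene was read from the probe set annotated to it alone (where a gene had several, the set of highest mean over all arrays). Of the 29 genes, 27 were found in this way among 19938 genes in all. Xrcc2 and Rbbp8 are not analysed here. The cells were NIH-3T3, an immortal mouse fibroblast line, so each group is a sample of a single line. One group of 3 arrays came from cells given a mimic of mmu-miR-378-3p, a synthetic RNA that acts as this microRNA. Another group of 3 received an inhibitor that blocks it, and the control group of 3 received RISC-free siRNA, an RNA that the silencing machinery does not take up. All 3 groups had 25 nM RNA in DharmaFECT 1 reagent, and RNA was taken after 48 h. No mimic or inhibitor of another sequence was used here, so effects of an active RNA as such cannot be told apart from those of miR-378-3p.

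Homologous recombination copies the sister chromatid to mend a double-strand break. Nucleases of the Mre11 complex and Exo1 trim the break, Brca1 and Brca2 prepare the bared strand for exchange, and Rad54 motors help to carry the exchange through. The Fanconi proteins act on crosslinks, whose repair also uses this exchange. The kinases Atm and Atr signal through Chek2 and Chek1 to hold the cycle. As a sister chromatid is needed, many of these genes are transcribed mainly in dividing cells around S phase, and fibroblasts in culture use them at every round of replication.

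Levels are log2 values of the deposited table (RMA, the robust multi-array average), so a difference of 1 is a doubling. Array medians over all probe sets ran from 3.94 to 4.03, and the upper quartile from 5.55 on mimic 3 to 5.76 on inhibitor 1, the arrays that lay at the ends of the first principal component. At most 3.58% of values were identical between any arrays. The 10 fibroblast markers were all above the level filter, and their mean per array ran from 9.95 to 9.99 for control, 9.90 to 10.04 for mimic and 9.88 to 9.96 for inhibitor arrays. None of 5 epithelial markers, 1 of 4 endothelial, 2 of 5 macrophage and 3 of 5 muscle markers passed that filter. The labels speak of triplicates and name no separate cultures, so the p-values reflect spread among these samples only, and that spread may be technical.

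A gene was tested if its mean over the 9 arrays reached 3.86, the 40th percentile of all genes, and 23 of the 27 did so. Brca2 (mean 3.90) lay just inside. Rad51ap1 (3.72), Fancg (3.67), Fancc (3.66) and Palb2 (3.40) lay below the filter, with Palb2 furthest from it. Differences are given as log2 fold changes with standard errors (SE) from limma, and a gene is called where the p-value, adjusted by Benjamini-Hochberg over all 11963 genes tested, is under 0.05.

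The comparison of mimic with inhibitor asked how far these genes stood apart between cells given the mimic and cells given the inhibitor. It leaves the controls out of the difference. The activity of miR-378-3p itself was not measured here. Recombination and checkpoint genes were lower with the mimic. Of the 23 tested, 15 were called lower and 0 higher (limma), which is 65.2% lower against 19.9% of all genes tested (6.91% of all genes were higher), and the median log2 fold change was -0.27 against -0.02 over all genes. The arrays of the groups did not overlap for 19 of the 23, all of them lower with the mimic, against 25.7% of all genes lower and 12.9% higher. Exo1, Rad54l, Topbp1 and Chek1 showed the largest differences, from -0.60 to -0.68. In RNA from whole cultures, fewer cells in a given phase of the cycle and less RNA per cell cannot be told apart.

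Rad54l (gene ID 19366) encodes a motor protein that drives strand invasion. It stood at 5.59, 5.62 and 5.58 in the controls. The mimic arrays read 5.26, 5.41 and 5.28, and those of the inhibitor 6.0, 5.94 and 5.92. The 3 groups were fully separate, with the controls in the middle. Mimic and inhibitor differed by -0.63 ± 0.05 (log2, SE; limma, adjusted p = 4.77e-05), so the level with the mimic was 0.644 of that with the inhibitor.

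Exo1 (gene ID 26909), the exonuclease that lengthens the trimmed strand and also serves mismatch repair, had control values of 4.77, 4.84 and 4.93. The mimic arrays read 4.59, 4.47 and 4.35, and the inhibitor arrays 5.29, 5.11 and 5.04. Again no group overlapped another. The mimic level was 0.625 of the inhibitor level, with a difference of -0.68 ± 0.08 (log2, SE; limma, adjusted p = 0.000287).

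Topbp1 (gene ID 235559), the scaffold that switches on the kinase Atr, read 7.18, 7.10 and 7.25 in control cells, 7.02, 7.14 and 6.76 after the mimic and 7.70, 7.58 and 7.49 after the inhibitor. Mimic 2 lay among the controls, while each inhibitor array was above all others. Mimic and inhibitor differed by -0.62 ± 0.09 (log2, SE; limma, adjusted p = 0.0011).

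Chek1 (gene ID 12649) encodes the kinase that Atr activates at stalled forks. Its values were 4.74, 4.88 and 4.89 on control, 4.49, 4.90 and 4.63 on mimic, and 5.36, 5.07 and 5.41 on inhibitor arrays. Mimic 2 was the highest of the mimic arrays and just above the controls, so only the inhibitor group stood clear. The difference between mimic and inhibitor was -0.60 ± 0.11 (log2, SE; limma, adjusted p = 0.0032).

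Msh6 (gene ID 17688), which recognises mismatched bases, stood at 6.14, 6.17 and 6.22 in control cells, at 5.93, 6.20 and 5.89 after the mimic and at 6.57, 6.39 and 6.47 after the inhibitor. Mimic 2 again read as the controls did. Mimic against inhibitor gave -0.47 ± 0.08 (log2, SE; limma, adjusted p = 0.00202).

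Fancb (gene ID 237211) encodes a subunit of the Fanconi core complex. Its mimic and control arrays overlapped, as did those of Topbp1, Chek1 and Msh6, with a log2 fold change of -0.06 for Fancb. Controls at 4.13, 4.10 and 4.23 overlapped the mimic arrays at 4.11, 4.13 and 4.07, and the inhibitor arrays lay above both at 4.69, 4.35 and 4.51. Its difference of -0.42 ± 0.08 (log2, SE; limma, adjusted p = 0.00343) thus came with little distance between mimic and control, as the plot of single arrays shows.

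**Figure D1:**
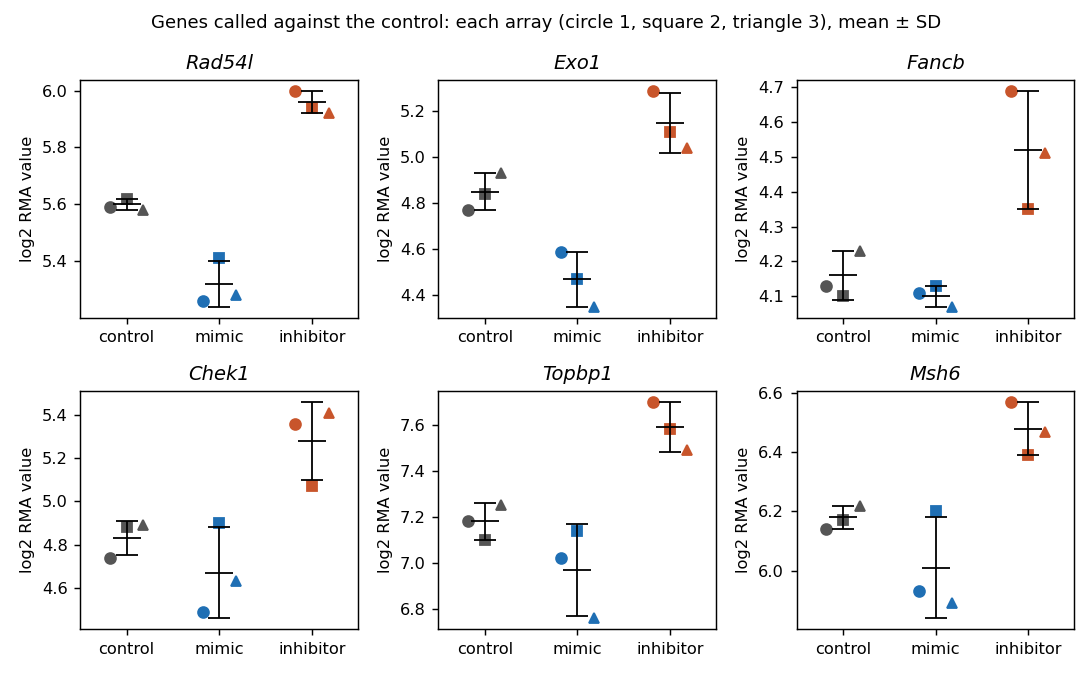
Log2 RMA value (y axis) of Rad54l, Exo1, Fancb, Chek1, Topbp1 and Msh6 on each of the 9 arrays, by group (x axis), with circle, square and triangle for arrays 1, 2 and 3 and black bars for the mean ± SD of 3 arrays; each y axis has its own range and does not start at 0. The inhibitor arrays lie above the controls in all 6 panels, and the mimic arrays lie wholly below the controls for Rad54l and Exo1.

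The bases just before the start of 4 of these genes are shown, as such stretches can hold sites that time transcription in the cycle. They are the genes with the smallest adjusted p whose promoter is in the RefSeq table (GRCm38.p6), each 150 bases up to the base before the start, 5′ to 3′ along the gene. Rad54l is at chr4:116123691-116123840 (minus strand), Topbp1 at chr9:103305177-103305326 (plus), Msh6 at chr17:87974900-87975049 (plus) and Chek1 at chr9:36726659-36726808 (minus). Capitals mark matches, on either strand, to an E2F motif (TTTCCCGC, TTTCGCGC, TTTGCCGC or TTTGGCGC), the CHR element (TTTGAA) or the CCAAT box (CCAAT).
Rad54l: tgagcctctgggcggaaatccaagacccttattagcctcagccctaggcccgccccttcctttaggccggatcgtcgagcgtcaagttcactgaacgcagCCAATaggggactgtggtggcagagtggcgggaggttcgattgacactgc
Topbp1: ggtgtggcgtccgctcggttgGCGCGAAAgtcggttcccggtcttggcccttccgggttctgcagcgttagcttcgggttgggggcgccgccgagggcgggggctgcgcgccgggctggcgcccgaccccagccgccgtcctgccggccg
Msh6: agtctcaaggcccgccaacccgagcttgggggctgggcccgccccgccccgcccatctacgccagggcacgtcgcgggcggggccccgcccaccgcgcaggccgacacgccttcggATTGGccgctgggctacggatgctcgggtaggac
Chek1: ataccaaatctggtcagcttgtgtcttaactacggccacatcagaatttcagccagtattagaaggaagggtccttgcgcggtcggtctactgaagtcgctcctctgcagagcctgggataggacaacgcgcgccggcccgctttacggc

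Topbp1 held an E2F match at -129, counted from the start to the motif's leftmost base, which reads GCGCGAAA along the gene. Rad54l held a CCAAT box at -50, and Msh6 the reverse form ATTGG at -34. The stretch of Chek1 had none of these letters. Over 250 bases before the start, and with the first listed start of a gene, 22 of the 29 genes were in the table, and Exo1, Rad54b, Nbn, Rad50, Xrcc2, Rbbp8 and Fancd2 were not. An E2F match was present in 5 of the 22 (Bard1, Brca2, Chek2, Fancg and Topbp1), or 22.7%, and in 1.91% of 27025 promoters of the table. The CCAAT box occurred in 13 of 22 (59.1%, against 34.5%), and the CHR element in Bard1 alone (4.55%, against 16.3%). No match to 1 motif overlapped a match to another in these 22 promoters. Among the 11 genes called lower with the mimic than with the inhibitor and present in the table, 1 had an E2F match and 8 a CCAAT box, and among 7 tested but not called the numbers were 3 and 3. The 27025 promoters were not limited to the genes tested or matched to the 22 in base composition, which bears on how often such letters occur. A match is a run of letters, and no binding was measured.

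The second comparison, inhibitor with control, asked which of these genes rise when the inhibitor is given. With the inhibitor, 6 of 23 rose and 0 fell (limma), which is 26.1% higher against 11.1% of all genes tested (3.76% of all genes were lower), with a median of 0.17 against 0.01. Chek1 rose by 0.44 ± 0.11 (log2, SE; limma, adjusted p = 0.0251), Topbp1 by 0.41 ± 0.09 (adjusted p = 0.0158) and Fancb by 0.36 ± 0.08 (adjusted p = 0.0128). Rad54l rose by 0.36 ± 0.05 (adjusted p = 0.00186), and Exo1 and Msh6 by 0.30 ± 0.08 each (adjusted p = 0.0323 for both). The groups did not overlap, with the inhibitor higher, for 12 of 23 genes against 24.9% of all genes, and for 0 with the inhibitor lower against 12.8%. These include 6 that were not called, namely Brca2, Nbn, Rad50, Blm, Fanca and Atm, with log2 fold changes of 0.08, 0.17, 0.32, 0.20, 0.22 and 0.27. The number of calls depended on single arrays. It was 1 without control 1, 1 without control 2, 3 without control 3 and 2 without inhibitor 1. The shares of all genes called higher in those fits were 6.2%, 6.57%, 6.3% and 6.25%. Thus 1 of 23 without control 1 or control 2 was not above the share of all genes. Rad54l was called in each of the 9 fits that left out an array. The number of calls was 7 without mimic 3 and inhibitor 1 (13.9% of all genes), and 3 of 27 when no level filter was set (5.35% of all genes).

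The remaining comparison, mimic with control, asked which genes fall when the microRNA is supplied. Exo1 and Rad54l fell, 2 of 23 (8.70%) against 2.45% of all genes called lower, and 0 rose against 1.1% (limma, 6 of 23 with an unadjusted p under 0.05). The median was -0.14 against -0.01. Exo1 fell by 0.38 ± 0.08 (log2, SE; limma, adjusted p = 0.0301), and Rad54l by 0.28 ± 0.05 (adjusted p = 0.0202). Groups without overlap and with the mimic lower were found for 8 of 23 genes, against 12.7% of all genes, and with the mimic higher for 0, against 8.67%. Beside Exo1 and Rad54l these were Brca1, Blm, Fancd2, Fanci, Fancl and Atm, with log2 fold changes of -0.28, -0.13, -0.12, -0.18, -0.14 and -0.16, none called. Both calls were lost without control 1, control 2 or control 3, and Rad54l's also without mimic 1 (limma, adjusted p = 0.0878). With no level filter, Exo1 was not called (limma, adjusted p = 0.0557) and Rad51ap1 was. Without mimic 2, Exo1 missed the threshold (adjusted p = 0.0529), and Fanci and Msh6 passed it beside Rad54l. In fits with 1 array left out, the adjusted p ran from 0.0218 to 0.135 for Exo1 and from 0.00956 to 0.0921 for Rad54l. The same control arrays enter this comparison and that of inhibitor with control.

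**Figure D2:**
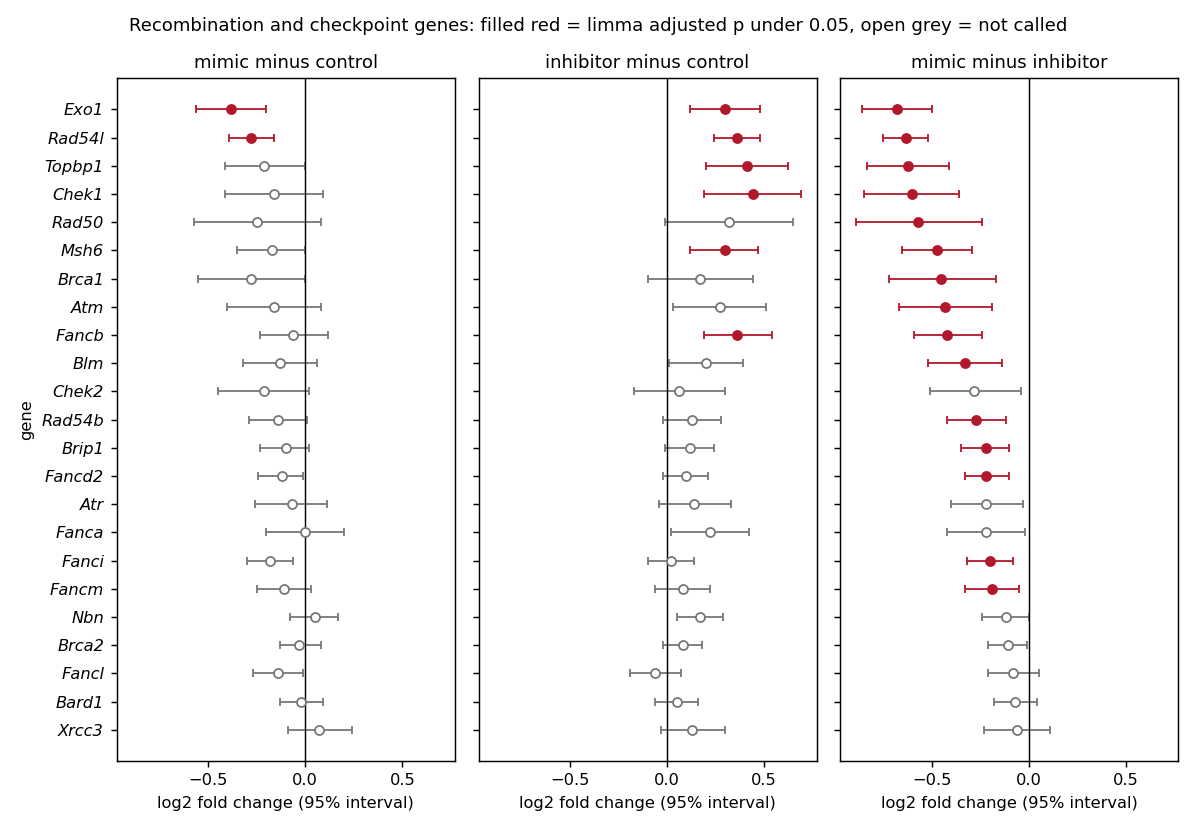
Log2 fold changes (x axis, with 95% limma intervals as bars) of the 23 genes tested (y axis, ordered by the difference of mimic and inhibitor) in the 3 comparisons; filled red points have an adjusted p under 0.05. Calls number 2 in the left panel, 6 in the middle and 15 on the right, where all 23 points lie below 0.

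Within homologous recombination proper, the genes differed in how far they moved. Their mean levels differed too, from 3.90 for Brca2 to 5.62 for Rad54l, and whether level bears on the size of a difference was not tested. Of 6 core genes tested, 3 were lower with the mimic than with the inhibitor, namely Rad54l, Brca1 and Rad54b (50.0% against 19.9% of all genes). Brca1 (gene ID 12189), the ubiquitin ligase that steers a break toward recombination, read 4.97, 5.03 and 5.03 on control, 4.82, 4.87 and 4.52 on mimic, and 5.48, 5.04 and 5.03 on inhibitor arrays. Inhibitor 1 stood far above the other inhibitor arrays, which read like the controls, and mimic 3 was lowest. Brca1 differed by -0.45 ± 0.12 (log2, SE; limma, adjusted p = 0.0213), and by -0.30 without inhibitor 1 (adjusted p = 0.0561) and -0.19 without inhibitor 1 and mimic 3 (adjusted p = 0.0213). Leaving both arrays out also narrowed the spread within the groups, on which that last p-value rests.

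Rad54b, a second motor of the Rad54 kind, had a smaller difference of -0.27 ± 0.07 (limma, adjusted p = 0.0146), and its arrays ran from 3.83 to 4.27. Brca2, which acts on the trimmed strand, ran only from 3.82 to 4.0 and was not called (-0.11, adjusted p = 0.105). Neither Bard1, the partner of Brca1 (-0.07, 95% interval -0.18 to 0.04), nor the recombination gene Xrcc3 (-0.06, interval -0.23 to 0.11) was called, and these intervals leave out a difference as large as that of Rad54l. Bard1 has 3 probe sets, and the differences of mimic and inhibitor on them were -0.07, -0.01 and -0.21.

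Rad51ap1, which helps strands to pair, and Palb2, the bridge of Brca1 and Brca2, lay below the level filter. Rad51ap1 read 3.76, 3.73 and 3.77 on control, 3.65, 3.56 and 3.59 on mimic and 3.77, 3.80 and 3.80 on inhibitor arrays. Its mimic arrays lay below all others by a small margin. In a fit of all genes with no level filter, Rad51ap1 differed by -0.15 ± 0.03 from the control (limma, adjusted p = 0.0492) and by -0.19 ± 0.03 between mimic and inhibitor (adjusted p = 0.00461). Palb2 stayed between 3.34 and 3.46 on all arrays.

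Among 5 genes of end trimming and unwinding, 4 were lower with the mimic than with the inhibitor, namely Exo1, Rad50, Blm and Brip1 (80.0% against 19.9% of all genes). Rad50 (gene ID 19360), the tether of the Mre11 complex, read 6.06, 5.93 and 5.99 in control cells, 5.99, 5.91 and 5.34 after the mimic, and 6.49, 6.19 and 6.26 after the inhibitor. Mimic 3 was far below the other mimic arrays. The difference of Rad50 was -0.57 ± 0.15 (log2, SE; limma, adjusted p = 0.0166), -0.48 without inhibitor 1 (adjusted p = 0.0707) and -0.27 without inhibitor 1 and mimic 3 (adjusted p = 0.00883). The last p-value is small beside a reduced difference, as the spread within the groups also shrank without those arrays.

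The helicase gene Blm, whose product dissolves crossed strands, differed by -0.33 ± 0.09 (limma, adjusted p = 0.0159), with 4.41 to 4.55 on the mimic arrays and 4.70 to 5.04 on the inhibitor arrays. Brip1, a helicase that binds Brca1, differed by -0.22 ± 0.06 (adjusted p = 0.0155), a call that ended without mimic 1 or inhibitor 1 (adjusted p = 0.0649 and 0.0559). Nbn, the subunit of the Mre11 complex that recruits Atm, was not called (-0.12, adjusted p = 0.126). The probe sets of Nbn, 2 in number, disagreed, at -0.12 and 0.04.

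Among the Fanconi genes, Fancb showed the largest difference between mimic and inhibitor. Of 6 tested, 4 were lower with the mimic than with the inhibitor (66.7% against 19.9% of all genes), with a median of -0.21. In the mimic comparison with control 0 were called, where 2.45% of all genes were lower (limma, 3 with an unadjusted p under 0.05). Fancd2 and Fanci, the clamp that the core complex marks with ubiquitin, differed by -0.22 ± 0.05 (limma, adjusted p = 0.0117) and -0.20 ± 0.05 (adjusted p = 0.0184). Fancd2 read 4.02, 4.02 and 4.11 with the mimic and 4.34, 4.20 and 4.27 with the inhibitor, around controls of 4.16, 4.16 and 4.20. Fanci was low with the mimic at 4.18, 4.32 and 4.15, while controls (4.43, 4.38 and 4.38) and inhibitor arrays (4.45, 4.42 and 4.39) overlapped. Fancb thus stood apart from controls with the inhibitor, and Fanci was nearer to the controls there.

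The translocase gene Fancm differed by -0.19 ± 0.06 (limma, adjusted p = 0.0453), the weakest of the 15 calls. It was called in 2 of 9 fits with an array left out, those without mimic 2 and inhibitor 2, with an adjusted p of up to 0.145. The call of Fanci ended without mimic 1 (adjusted p = 0.0683) and without inhibitor 1 (adjusted p = 0.0578). Fanca was not called (-0.22, adjusted p = 0.10), nor was Fancl, the ubiquitin ligase of the core complex (-0.08, 95% interval -0.21 to 0.05). Fancl was the gene of the 23 whose inhibitor mean, 5.28, lay below the control mean of 5.34. Fancc and Fancg, further core subunits, lay below the level filter, between 3.61 and 3.71 on all arrays.

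Among the 5 checkpoint genes, Topbp1, Chek1 and Atm were lower with the mimic than with the inhibitor (60% against 19.9% of all genes), and the median of the 5 was -0.43. Atm (gene ID 11920), the kinase that double-strand breaks activate, read 4.53, 4.49 and 4.52 on control, 4.39, 4.37 and 4.29 on mimic and 5.09, 4.66 and 4.59 on inhibitor arrays. The 3 groups did not overlap, although inhibitor 1 lay well above the other inhibitor arrays. Atm differed by -0.43 ± 0.11 (log2, SE; limma, adjusted p = 0.0149), and by -0.24 without inhibitor 1 and mimic 3 (adjusted p = 0.00618). Here too the spread within the groups was narrower without those arrays.

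The kinases Atr and Chek2 were not called. Atr, which senses bare single strands, differed by -0.22 between mimic and inhibitor (limma, adjusted p = 0.0816), and Chek2, the kinase downstream of Atm, by -0.28 (adjusted p = 0.0761). The mimic and inhibitor arrays of Chek2 overlapped, at 4.29 to 4.69 and 4.61 to 4.90. Between mimic and control 0 of 5 were called, where 2.45% of all genes were lower (limma, 0 of 5 with an unadjusted p under 0.05). Topbp1 and Chek1 rose with the inhibitor, 40% against 11.1% of all genes, and whether the comparisons with control differ was not tested.

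**Figure D3:**
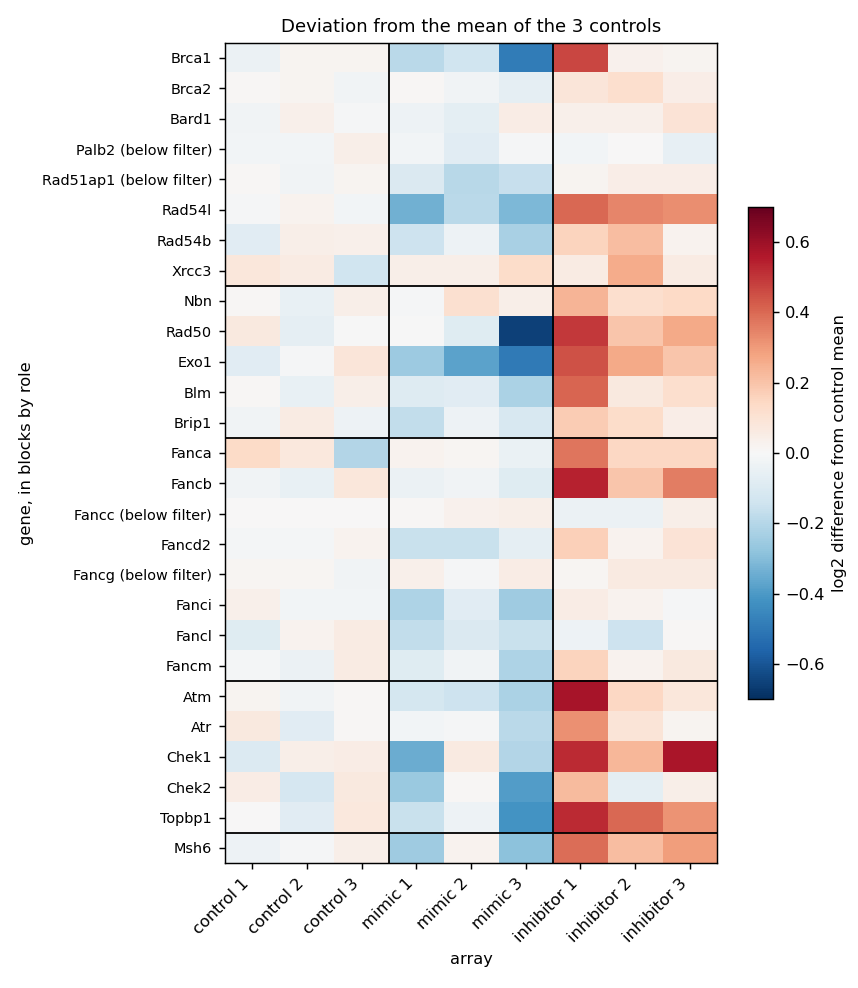
Colour gives the log2 difference from the mean of the 3 controls for each of the 27 genes (y axis, in blocks for core recombination, end trimming and helicases, Fanconi anaemia, checkpoint and mismatch repair) on each array (x axis), with red above and blue below the controls. Many of the deepest colours lie on inhibitor 1 and mimic 3, such as Rad50 on mimic 3, and Rad54l and Exo1 keep theirs over all arrays of a group.

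The arrays of a group were not alike. Mimic 3 was the lowest mimic array for 15 of the 23 genes and mimic 2 the highest for 15, and inhibitor 1 was the highest inhibitor array for 17. The median deviation of the 23 genes from the control mean was -0.15, -0.04 and -0.22 on mimic 1, 2 and 3, and 0.32, 0.13 and 0.09 on inhibitor 1, 2 and 3. On the controls it lay between -0.01 and 0.03. The median SD within a group was 0.05 for control, 0.08 for mimic and 0.11 for inhibitor arrays. Without mimic 3 and inhibitor 1, 11 of the 15 genes called between mimic and inhibitor were still called. In that fit 14.8% of all genes were lower, and the median over the 23 genes was -0.18. The calls lost were those of Brip1, Fanci, Fancm and Rad54b. Mimic 3 and inhibitor 1 lay at the ends of the first principal component, so leaving both out also narrows the spread within groups. Adjusted p-values of that fit are therefore no measure of how firm a difference is.

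A list of 81 further genes of recombination, the Fanconi pathway, checkpoint signalling and mismatch repair held 70 that were tested. Between mimic and inhibitor 29 of them were lower and 1 higher (limma, 41.4% lower against 19.9% of all genes), with a median of -0.15. With the inhibitor 7 rose and 0 fell against control (10.0% against 11.1% of all genes), and with the mimic 2 fell and 0 rose (2.86% against 2.45%, limma). Both shares against control are near those of all genes.

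By role, 16 of 26 checkpoint and damage signalling genes (61.5% against 19.9% of all genes) were lower with the mimic than with the inhibitor. The largest differences there were those of Rif1 (-0.74), which protects broken ends from trimming, Wee1 (-0.69), the kinase that restrains Cdk1, Mastl (-0.60), Rad9a (-0.54), a part of the checkpoint clamp, Rnf168 (-0.51) and Clspn (-0.42), the adaptor through which Atr reaches Chek1 (limma, adjusted p of at most 0.0077). Of 28 further recombination genes 8 (28.6% against 19.9% of all genes) were lower and 1 higher (3.57% against 6.91%). First among the lower were Fignl1 (-0.66), Mre11a (-0.55), the nuclease that works with Rad50 and Nbn, and Mms22l (-0.47). Rpa2 and Rpa1, which coat single strands, differed by -0.38 and -0.35. In the Fanconi pathway 5 of 13 (38.5% against 19.9% of all genes) were lower. They were led by Usp1 (-0.59), which strips ubiquitin from the clamp of Fancd2 and Fanci, and Rfwd3 (-0.58). Of 3 further mismatch repair genes tested 0 were called, where 19.9% of all genes were lower (limma, 1 with an unadjusted p under 0.05).

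Lists of DNA replication and mitosis genes were set beside these values. Of 34 replication genes 31 were lower with the mimic than with the inhibitor (91.2% against 19.9% of all genes, median -0.48). Of 23 mitosis genes 22 were (95.7%, median -0.44). Against control, 23 replication genes rose with the inhibitor (67.6% against 11.1% of all genes) and 10 fell with the mimic (29.4% against 2.45%, limma). Of the mitosis genes 16 fell with the mimic (69.6% against 2.45%), and 1 fell with the inhibitor, 4.35% and near the 3.76% of all genes (limma). On inhibitor 1, 2 and 3 the replication list lay at 0.39, 0.22 and 0.24 against the control mean, and the mitosis list at 0.08, 0.00 and -0.02. On mimic 1, 2 and 3 the replication list lay at -0.19, -0.14 and -0.33, and the mitosis list at -0.40, -0.30 and -0.56. The recombination and checkpoint genes, with -0.15, -0.04 and -0.22 on the mimic arrays, were thus closer to the controls than either list there. Of 17 target genes of p53, the factor that Atm and the checkpoint kinases activate, 12 rose (70.6% against 11.1% of all genes) and 1 fell with the inhibitor against control, and 2 fell with the mimic (11.8% against 2.45%, limma), with list medians of 0.43 and -0.05. The part that p53 activity or the share of dividing cells had in these differences was not tested.

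**Figure D4:**
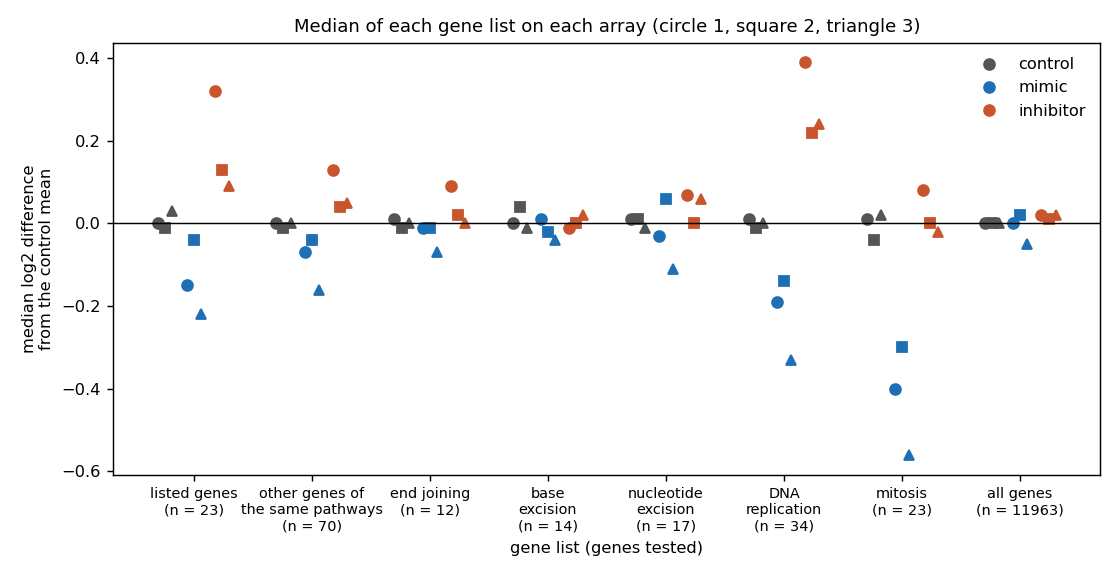
Median log2 difference from the control mean (y axis) of the genes of each list (x axis, with the number of genes tested) on each array, with colour for the group and circle, square and triangle for arrays 1, 2 and 3. For the 23 recombination and checkpoint genes the mimic arrays lie at -0.15, -0.04 and -0.22 and the inhibitor arrays at 0.32, 0.13 and 0.09, while the medians over all genes stay between -0.05 and 0.02.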

How the data were processed

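Total RNA from NIH-3T3 cells was measured on 9 Affymetrix arrays, 3 for each transfected RNA. The authors deposited log2 values for 28853 probe sets, made with Partek 6.5 and RMA per the submitters' processing notes. RMA corrects background, normalizes quantiles and summarizes probes. Some array-wide difference remained in the deposited values, with upper quartiles from 5.55 on mimic 3 to 5.76 on inhibitor 1. RMA gives log2, and values lay between 2.64 and 12.48. A genome build was not given in the sources used here. Genes were named from probe sets annotated to 1 gene (21789), and 0 sample columns were left unused.

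Group means were fitted over 9 arrays for 11963 genes with limma 3.58.1 in R 4.3.3 (lmFit, eBayes; 6 residual and 4.37 prior degrees of freedom), and tested on simulated data. The number of arrays limits the precision. All 29 genes are accounted for. Array values are given for genes called against the control or among the 6 smallest adjusted p of mimic against inhibitor, and for Brca1, Rad50, Atm, Fancd2, Fanci and Rad51ap1, chosen after their values were seen. From each other list up to 6 called genes with the largest difference are named. The genes and lists were chosen with earlier results of these data known. Alternatives changed the scaling (quantiles, median), the level filter, the arrays fitted or left out, the eBayes trend, the probe set summary (mean) and the replicate block. Figures were drawn with matplotlib 3.10.9.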

Additional observations from a re-analysis of the deposited data

How the results depend on the processing

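Of the 9 alternatives other than leaving out a single array, the count of 15 genes lower with the mimic than with the inhibitor stayed between 11 and 16, and with 1 array left out it ran from 10 to 16. The count of 2 falls with the mimic was 1 with median centring, 1 in a fit of 6 arrays and 1 with the replicate block. In these fits 1.45%, 1.39% and 1.64% of all genes were called lower. Exo1 lost its call with median centring (limma, adjusted p = 0.0633) and the block (0.0512), and Rad54l in the fit of 6 arrays (0.0506). That count ran from 0 to 3 with 1 array left out, where 0.736% to 3.3% of all genes were called lower. The count of 6 rises with the inhibitor was 3 with no level filter (5.35% of all genes called higher). It ran from 1 to 8 with 1 array left out (6.2% to 17.3% of all genes). Scaling changed the balance over all genes. With quantile normalization, 1947 genes were lower and 1827 higher with the mimic than with the inhibitor, against 2377 and 827 as deposited. For inhibitor against control, 1166 were lower and 1229 higher, against 450 and 1330 as deposited. Among the 23 genes, 16 were called lower in the first and 6 higher in the second under that scaling. Fits without an array have fewer samples, and the cause of each change was not tested. Median fold changes kept their direction in every setting run, from -0.16 to -0.10 (mimic), 0.11 to 0.20 (inhibitor) and -0.32 to -0.18 (mimic against inhibitor), and no difference of the 6 genes named first changed its direction. The labels do not say that the replicate numbers mark a shared culture or day. Correlations between arrays could not settle this, because deviations from a mean of 3 arrays depend on each other. Same-numbered arrays correlated at -0.59 to 0.22 in their deviations from the group means, and differently numbered arrays at -0.58 to 0.63. With the replicate block the counts were 1, 5 and 14, where 1.64%, 9.97% and 19.1% of all genes were called in those directions. Levels near the filter, such as that of Rad51ap1, limit what could be tested.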

Other observations

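Between mimic and inhibitor, 19.9% of all genes tested were lower and 6.91% higher with the mimic, on the values as deposited. Of 12 genes of end joining, which seals breaks without a template, 5 (41.7%) were lower and 2 (16.7%) higher (limma), with Parp1 (-0.45), Lig4 (-0.31), Xrcc6 (-0.26), a subunit of the end-binding Ku dimer, and Polm (-0.21) among the lower, and Paxx (0.44) and Xrcc4 (0.22) the higher. Xrcc6 rose by 0.24 with the inhibitor against control (limma, adjusted p = 0.0175). In nucleotide excision repair, which removes bulky lesions, 4 of 17 (23.5%) were lower and 2 (11.8%) higher, shares near those of all genes. Rad23b (-0.33), Ercc1 (-0.25), Ercc5 (-0.23) and Cetn2 (-0.20) were lower, and Xpa (0.38) and Ddb2 (0.24), both parts of damage recognition, were higher. Ercc1 rose by 0.33 with the inhibitor (adjusted p = 0.00441) and Rad23b by 0.19 (adjusted p = 0.0228).

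In base excision repair, which replaces single damaged bases, 1 of 14 genes was lower (7.14% against 19.9% of all genes). It was Neil3 (-0.35, limma, adjusted p = 0.00465), a DNA glycosylase. The medians of the end joining, nucleotide excision and base excision lists were -0.19, -0.09 and 0.00 between mimic and inhibitor, against -0.27 for the recombination and checkpoint genes and -0.02 over all genes. No test compared these lists with each other.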
